A study of Mus musculus with 11 samples.

Results

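Transforming growth factor beta (TGF-beta) signalling was followed in mouse lung through 9 genes of the 23255 in the deposited table. They are the ligands Tgfb1, Tgfb2 and Tgfb3, the latent TGF-beta binding proteins Ltbp1 and Ltbp2, the receptors Tgfbr1 and Tgfbr2, and the inhibitors Smad7 and Skil, which are also targets of the pathway. The genes were taken by name, each from 1 Ensembl row, and all 9 passed the filter on low values. The libraries came from lungs of C57BL/6 mice: 5 from mice given osimertinib after naphthalene (called osimertinib below), 3 from mice given naphthalene alone, and 3 from untreated mice (control). Osimertinib is an inhibitor of the EGF receptor used in lung cancer, naphthalene is toxic to airway club cells, and the series concerns the pneumonitis linked to the drug. The osimertinib mice had thus received naphthalene too. The labels used here give no dose, route, time, age or sex, and do not say whether the libraries of a group came from separate mice, so the spread behind each p-value may be technical.

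TGF-beta is secreted in a latent form, folded into its own propeptide and, through a latent TGF-beta binding protein, tethered to the extracellular matrix. Once released, the ligand brings together the type II receptor (Tgfbr2) and the type I receptor (Tgfbr1), which phosphorylates Smad2 and Smad3. These enter the nucleus with Smad4 and act on matrix, adhesion and cell cycle genes, as well as on Smad7 and Skil, which restrain the pathway in turn. In the lung the pathway is best known for its part in the deposition of matrix by fibroblasts.

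Promoter sequence is shown for 4 members: Tgfbr1 and Ltbp2, which had the smallest unadjusted p-values, Tgfbr2, whose ratio to Tgfbr1 was lower in the osimertinib libraries than in the others, and Tgfb2, the ligand whose level varied most between libraries. Of the 9 members, 6 had an entry in the RefSeq promoter table of build GRCm38.p6, an earlier build than the GRCm39 named in the submitters' processing notes. The 250 bases before the annotated start are given 5′ to 3′ in the direction of transcription, and capitals mark CAGAC or its reverse complement GTCTG, the core of the site that Smad3 and Smad4 bind, and TATAAA or TTTATA, the TATA box. The windows are chr4:47352972-47353221 (plus strand) for Tgfbr1, chr9:116175364-116175613 (minus strand) for Tgfbr2, chr12:84876492-84876741 (minus strand) for Ltbp2 and chr1:186705990-186706239 (minus strand) for Tgfb2. For Tgfbr1 the first of 2 listed starts was taken.
Tgfbr1: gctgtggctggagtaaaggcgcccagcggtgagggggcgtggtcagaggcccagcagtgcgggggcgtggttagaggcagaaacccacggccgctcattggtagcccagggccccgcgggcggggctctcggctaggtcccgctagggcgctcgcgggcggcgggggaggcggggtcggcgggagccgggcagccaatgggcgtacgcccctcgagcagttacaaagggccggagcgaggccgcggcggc
Tgfbr2: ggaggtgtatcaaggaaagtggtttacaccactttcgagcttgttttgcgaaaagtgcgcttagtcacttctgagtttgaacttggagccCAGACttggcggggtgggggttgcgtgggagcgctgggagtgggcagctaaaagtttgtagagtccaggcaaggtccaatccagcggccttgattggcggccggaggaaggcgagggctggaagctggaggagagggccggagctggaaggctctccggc
Ltbp2: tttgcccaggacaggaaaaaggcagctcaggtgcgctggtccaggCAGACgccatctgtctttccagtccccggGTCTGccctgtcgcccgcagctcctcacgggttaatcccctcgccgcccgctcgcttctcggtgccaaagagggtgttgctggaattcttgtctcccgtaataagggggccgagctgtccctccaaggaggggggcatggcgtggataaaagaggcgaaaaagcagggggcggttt
Tgfb2: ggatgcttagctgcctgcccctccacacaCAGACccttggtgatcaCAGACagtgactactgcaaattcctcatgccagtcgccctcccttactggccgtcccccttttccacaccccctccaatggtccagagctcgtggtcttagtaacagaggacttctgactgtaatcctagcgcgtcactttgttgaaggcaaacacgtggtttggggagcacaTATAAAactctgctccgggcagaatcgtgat

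The Ltbp2 and Tgfb2 windows each held 2 CAGAC matches on either strand, the Tgfbr2 window 1 and the Tgfbr1 window 0. Such a match was present in 42.2% of all 32851 promoter windows of the same length. Among the 6 members with an entry only Tgfb2 held TATAAA, 31 bases before the start, which 12.4% of all windows hold. The Tgfbr1 window was 74.8% G and C and the Tgfb2 window 53.6%, against a median of 52.4% over all windows. A match is a description of these letters and does not mark a site in use.

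The libraries held between 5045361 and 13009975 gene reads. A single gene without a name in the annotation, ENSMUSG00000119584, took 43.9 to 60.3% of the reads in the 3 naphthalene libraries and osimertinib 2, and at most 0.0337% in the others, so the members rested on 35 to 668 reads in the naphthalene libraries and 290 to 3198 in the control libraries. The thinnest value of a member was Tgfb3 in naphthalene 3, with 35 reads and a value of 16.1 (exact Poisson 95% interval 11.2 to 22.3, counting error only). Along the first principal component osimertinib 3 lay far from the rest, with a score of 72.7 against −29.2 to 26.2 in the other libraries. Its alveolar type 2 markers summed to 35901, against 14276 to 23819 over the naphthalene and control libraries. Markers of alveolar type 1 and type 2, club and endothelial cells, the defining cells of lung, were all detected. Of 6 cartilage markers 5 had no row in the table.

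**Figure D1:**
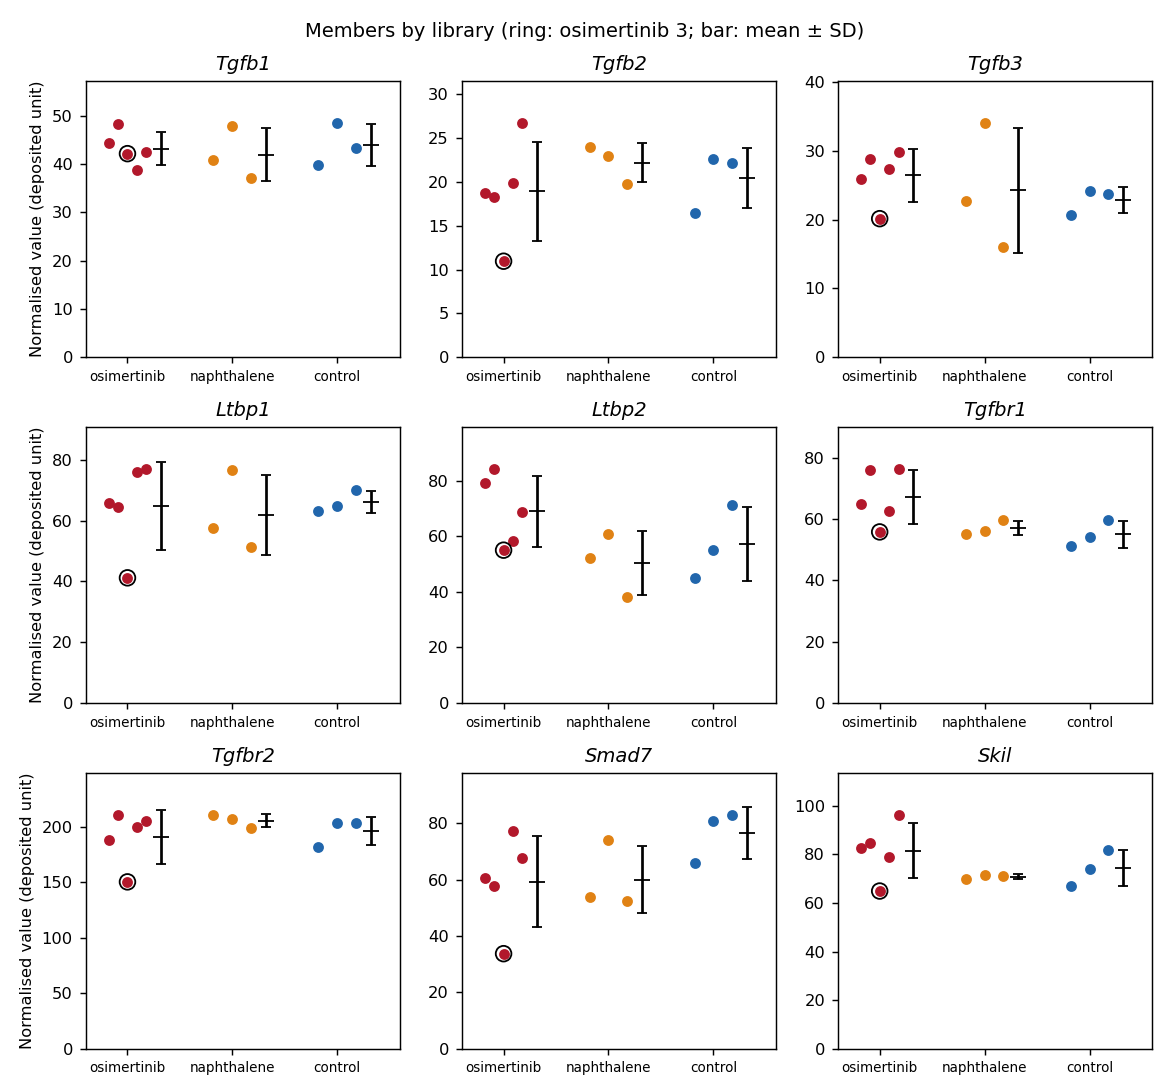
Normalised value of each of the 9 members in each library (points, deposited unit, linear axis from 0), by group, with the mean ± SD as a bar and osimertinib 3 ringed. The ranges of the groups overlapped for every member in every comparison, and osimertinib 3 was the lowest osimertinib library for 8 of the 9.

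No member differed between groups past the threshold. All values are in the deposited unit, which scales reads to a normalised library size. Differences are on the log2(value + 1) scale and were tested with limma across 16225 genes with Benjamini-Hochberg adjustment. Of the 9 members, 0 were called in osimertinib against naphthalene (background 0% of genes), 0 in osimertinib against control (background 0.00616%) and 0 in naphthalene against control (background 0%). At an unadjusted p under 0.05 the counts were 1, 1 and 0 members, with backgrounds of 10.3%, 4.8% and 7.46% of genes. Scaled to equal totals, all 9 members passed in osimertinib against naphthalene and in naphthalene against control, where the median gene itself lay at 1.10 and −1.45. On reads recovered from the values edgeR and DESeq2 also called 0 members in each comparison. By edgeR the backgrounds were 0%, 0.00616% and 0% of genes in the same order of comparisons, and by DESeq2 they were 0.203%, 0.481% and 0.074%. The ranges of the groups did not overlap for 0 of the 9 members, where 3.82% of genes lay wholly higher and 2.12% wholly lower in osimertinib than in naphthalene, 2.91% and 3.43% in osimertinib than in control, and 4.94% and 11.2% in naphthalene than in control. The median difference over the members was 0.05, −0.02 and −0.06 in these comparisons, beside 0.06, −0.01 and −0.06 over all genes. The comparisons share libraries and are not independent.

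**Figure D2:**
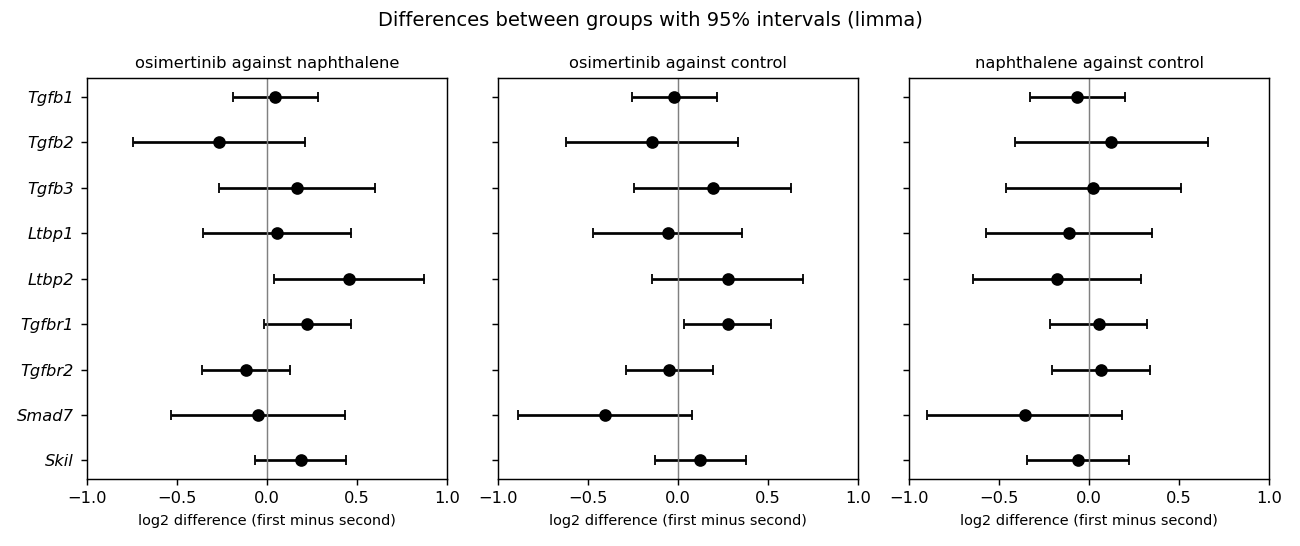
Log2 difference of each member (points) with its unadjusted 95% interval from limma (bars) in the 3 comparisons, the group named first minus the other. Only the intervals of Ltbp2 in osimertinib against naphthalene and of Tgfbr1 in osimertinib against control lie wholly on 1 side of 0, and neither passed after adjustment.

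No ligand passed in any comparison, and the ranges of the groups overlapped for each. Tgfb1, the isoform that platelets and leukocytes carry in quantity, had values of 44.4, 48.2, 42.1, 38.7 and 42.4 in osimertinib 1 to 5. It had 40.7, 47.9 and 37.2 in naphthalene 1 to 3, and 39.8, 48.5 and 43.2 in control 1 to 3. The groups lay on top of each other. The log2 difference was 0.05 for osimertinib against naphthalene (95% interval −0.19 to 0.28, adjusted p = 0.909), −0.02 for osimertinib against control (−0.26 to 0.21, adjusted p = 0.999) and −0.07 for naphthalene against control (−0.33 to 0.20, adjusted p = 0.959). Tgfb1 had the narrowest intervals of the 9, reaching from 0.796-fold to 1.22-fold over the 3 comparisons. Platelet markers summed to 25.9 to 41.2 in osimertinib, 18.4 to 27.3 in naphthalene and 24.1 to 49.8 in control, while B cell markers summed to 37.9 to 90.2, 127.6 to 195 and 119 to 190.1 in the same groups. Their part in the Tgfb1 values was not tested. In whole lung, fewer cells of a type and less RNA per cell cannot be told apart.

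Tgfb2, known in the lung from epithelial and mesenchymal cells, had values of 18.8, 18.3, 10.96, 19.9 and 26.7 in osimertinib 1 to 5. It had 24.0, 22.9 and 19.7 in naphthalene 1 to 3, and 16.5, 22.7 and 22.2 in control 1 to 3. Osimertinib held both the lowest library (3) and the highest (5), and its range covered those of the other groups. The log2 difference was −0.27 for osimertinib against naphthalene (SE 0.22, adjusted p = 0.718), and the interval ran from 0.597-fold to 1.16-fold. With the replicate block, which pairs same-numbered libraries, it was −0.48 (unadjusted p = 0.0414, adjusted p = 0.506 by limma). Osimertinib 4 and 5 have no partner, so that difference rests on osimertinib 1 to 3. Without osimertinib 3, and with no block, the difference was −0.10. That the numbers are pairs was not shown. Without osimertinib 3 the osimertinib mean was 20.9 ± 3.93 (SD, n = 4), against 22.2 ± 2.22 (SD, n = 3) in naphthalene and 20.4 ± 3.44 (SD, n = 3) in control.

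Tgfb3, which has a part in lung development and palate closure, had values of 25.95, 28.9, 20.1, 27.3 and 29.8 in osimertinib 1 to 5. It had 22.7, 34.0 and 16.1 in naphthalene 1 to 3, and 20.7, 24.2 and 23.7 in control 1 to 3. Naphthalene held both the highest and the lowest value of all 11 libraries. Its mean was 26.4 ± 3.80 (SD, n = 5) in osimertinib, 24.3 ± 9.08 (SD, n = 3) in naphthalene and 22.9 ± 1.90 (SD, n = 3) in control. The log2 difference of osimertinib against control was 0.19 (SE 0.20, adjusted p = 0.999). Without osimertinib 3 the osimertinib libraries lay at 25.95 to 29.8, all above the control libraries, a separation made by leaving out the lowest library after its value was seen.

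Levels of different genes were compared per kilobase of the longest annotated transcript. By this measure Tgfb1 made up 63.5 ± 4.84% of the summed ligand level in osimertinib (SD, n = 5), 63.0 ± 3.23% in naphthalene (SD, n = 3) and 65.2 ± 1.35% in control (SD, n = 3). Tgfb3 made up 24.8 ± 2.11%, 22.8 ± 4.54% and 21.9 ± 0.660% in the same groups, and Tgfb2 the rest, at 11.7 ± 2.90%, 14.3 ± 1.76% and 12.9 ± 1.14%. The order Tgfb1, Tgfb3, Tgfb2 held in all 11 libraries. The summed ligand level per kilobase was 31.4 ± 2.78 in osimertinib, 30.8 ± 5.45 in naphthalene and 30.9 ± 3.12 in control.

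Among the latent binding proteins, Ltbp2 had the largest difference of any member. Ltbp1, which links latent TGF-beta to the matrix, had values of 65.7, 64.3, 41.2, 75.8 and 77.0 in osimertinib 1 to 5. It had 57.5, 76.7 and 51.4 in naphthalene 1 to 3, and 63.2, 64.9 and 70.0 in control 1 to 3. The ranges overlapped throughout, and osimertinib 3 was the lowest library. Ltbp1 had a log2 difference of 0.05 for osimertinib against naphthalene (SE 0.19, adjusted p = 0.943) and −0.06 for osimertinib against control (SE 0.19, adjusted p = 0.999).

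Ltbp2, a matrix protein of elastic fibres that, unlike Ltbp1, does not bind latent TGF-beta, had values of 79.1, 84.2, 55.0, 58.1 and 68.6 in osimertinib 1 to 5. It had 52.1, 60.9 and 38.1 in naphthalene 1 to 3, and 44.8, 55.2 and 71.3 in control 1 to 3. Osimertinib 1, 2 and 5 lay above every naphthalene library, and osimertinib 3 and 4 lay below naphthalene 2. The mean was 69.0 ± 12.7 (SD, n = 5) in osimertinib, 50.4 ± 11.5 (SD, n = 3) in naphthalene and 57.1 ± 13.3 (SD, n = 3) in control. The log2 difference of osimertinib against naphthalene was 0.45 (SE 0.19, 95% interval 0.04 to 0.87), with an unadjusted p of 0.0357 and an adjusted p of 0.439 by limma. Leaving out 1 library gave 0.27 (without naphthalene 3, unadjusted p = 0.202) to 0.60 (without naphthalene 2). The unadjusted p was also above 0.05 without osimertinib 1, 2 or 5 or naphthalene 1 (0.0554 to 0.0797), without naphthalene 3 and osimertinib 3 together (0.0692), under median-ratio scaling (0.064), quantile normalisation (0.0764) and array weights (0.106), and by edgeR (0.0805) and DESeq2 (0.0857). Against control it was 0.27 (SE 0.19, adjusted p = 0.999). Summed fibroblast markers were 1432 to 1741 in osimertinib, 1290.3 to 1976 in naphthalene and 1429.5 to 1586 in control, and their part in the Ltbp2 values was not tested. The elastic fibre genes Ltbp3 and Fbn1 are given with the other pathway genes.

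Neither receptor passed in any comparison. Tgfbr1, the type I receptor kinase that phosphorylates Smad2 and Smad3, had values of 64.8, 76.0, 55.8, 62.6 and 76.3 in osimertinib 1 to 5. It had 55.3, 56.2 and 59.7 in naphthalene 1 to 3, and 51.1, 54.2 and 59.8 in control 1 to 3. Osimertinib 1, 2, 4 and 5 lay above all naphthalene and control libraries, and osimertinib 3 lay within their range. The mean was 67.1 ± 8.90 (SD, n = 5) in osimertinib, 57.0 ± 2.33 (SD, n = 3) in naphthalene and 55.0 ± 4.37 (SD, n = 3) in control. By limma the log2 difference was 0.22 for osimertinib against naphthalene (SE 0.11, adjusted p = 0.524) and 0.27 for osimertinib against control (SE 0.11, unadjusted p = 0.0291, adjusted p = 0.925). The interval of the difference from control ran from 1.02-fold to 1.43-fold. Its unadjusted p was above 0.05 without osimertinib 2 or 5 or control 1 or 2 (0.0642 to 0.115), under quantile normalisation (0.0675), with a read-share term (0.0639), with the replicate block (0.109) and with equal totals with or without ENSMUSG00000119584 (0.782 and 0.787).

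Tgfbr2, the type II receptor that binds the ligand and activates Tgfbr1, had values of 188, 211, 150.5, 200.1 and 205 in osimertinib 1 to 5. It had 211, 207 and 199 in naphthalene 1 to 3, and 182, 204 and 204 in control 1 to 3. Osimertinib 3 was the lowest of all libraries, and the other osimertinib libraries lay between 188 and 211. Tgfbr2 had a log2 difference of −0.12 for osimertinib against naphthalene (SE 0.11, adjusted p = 0.768), −0.05 for osimertinib against control (SE 0.11, adjusted p = 0.999) and 0.07 for naphthalene against control (SE 0.12, adjusted p = 0.959).

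Within a library, the ratio of Tgfbr2 to Tgfbr1 per kilobase does not depend on how the library was scaled. It was 2.06, 1.98, 1.92, 2.27 and 1.91 in osimertinib 1 to 5. It was 2.72, 2.62 and 2.37 in naphthalene 1 to 3, and 2.53, 2.67 and 2.43 in control 1 to 3. All 5 osimertinib libraries lay below all 6 others. Osimertinib 2, the library with the read share of the naphthalene group, lay with its own group. It is 1 library, and the part of the read share in the ratio was not tested. The gap was narrow, from 2.27, the highest osimertinib ratio, to 2.37 in naphthalene 3. The latter rests on 434 reads of Tgfbr2 and 130 of Tgfbr1. Its Tgfbr1 value of 59.7 has an exact Poisson 95% interval of 49.8 to 70.8 (counting error only). Whether the gap exceeds counting error was not tested. The mean ratio was 2.03 ± 0.149 (SD, n = 5) in osimertinib, 2.57 ± 0.176 (SD, n = 3) in naphthalene and 2.54 ± 0.123 (SD, n = 3) in control. The naphthalene and control ranges overlapped. The ratio was formed after the values of both genes had been seen, so it is given as a description with no test, and how many other gene pairs separate osimertinib as well was not counted.

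**Figure D3:**
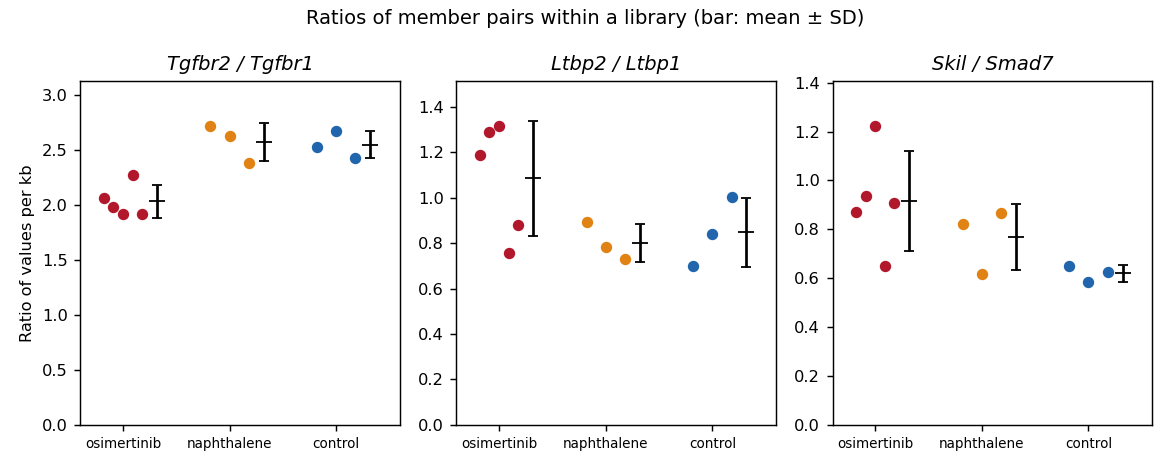
Ratio of the values per kilobase of 3 pairs of members within each library (points, linear axis from 0), by group, with the mean ± SD as a bar. The Tgfbr2 to Tgfbr1 ratio was 1.91 to 2.27 in osimertinib, below 2.37 to 2.72 in naphthalene and 2.43 to 2.67 in control.

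The inhibitors did not share a direction in osimertinib against control. Smad7, which binds the type I receptor and blocks the phosphorylation of Smad2 and Smad3, had values of 60.5, 57.7, 33.8, 77.2 and 67.6 in osimertinib 1 to 5. It had 54.0, 74.0 and 52.3 in naphthalene 1 to 3, and 65.9, 80.9 and 83.1 in control 1 to 3. Osimertinib 1, 2 and 3 and naphthalene 1 and 3 lay below all control libraries, and the others lay within the control range. The mean was 59.3 ± 16.2 (SD, n = 5) in osimertinib, 60.1 ± 12.0 (SD, n = 3) in naphthalene and 76.6 ± 9.35 (SD, n = 3) in control. The log2 difference was −0.41 for osimertinib against control (SE 0.22, adjusted p = 0.999) and −0.36 for naphthalene against control (SE 0.25, adjusted p = 0.815). With the replicate block the difference from control in osimertinib was −0.63 (unadjusted p = 0.0101, adjusted p = 0.598 by limma). That difference rests on osimertinib 1 to 3, as osimertinib 4 and 5, at 77.2 and 67.6, have no partner. Same-numbered libraries of these groups also did not deviate together. Both intervals without the block included 0 and reached down to 0.540-fold and 0.537-fold. Summed endothelial markers were 1675 to 1864 in osimertinib, 1488 to 1705 in naphthalene and 1821 to 1898 in control, and their part in the Smad7 values was not tested.

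Skil (also called SnoN), a nuclear protein that holds Smad complexes inactive, had values of 82.7, 84.7, 64.9, 78.7 and 96.2 in osimertinib 1 to 5. It had 69.8, 71.6 and 71.1 in naphthalene 1 to 3, and 67.1, 74.1 and 81.7 in control 1 to 3. Osimertinib 1, 2, 4 and 5 lay above every naphthalene library, and osimertinib 3 lay below all 10 others. The log2 difference was 0.19 for osimertinib against naphthalene (SE 0.12, adjusted p = 0.621) and 0.12 for osimertinib against control (SE 0.12, adjusted p = 0.999). The ratio of Skil to Smad7 per kilobase, also formed after the values were seen, was 0.649 to 1.22 in osimertinib, 0.616 to 0.866 in naphthalene and 0.583 to 0.648 in control. The lowest osimertinib library (4, at 0.649) and the highest control library (1, at 0.648) were nearly equal.

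In order of mean level per kilobase over the 11 libraries, the members were Tgfbr2 (24.3), Tgfb1 (19.8), Smad7 (15.0), Skil (11.4), Tgfbr1 (10.6), Ltbp1 (9.64), Ltbp2 (8.96), Tgfb3 (7.35) and Tgfb2 (3.96). Skil lay above Tgfbr1 in 9 of 11 libraries, Tgfbr1 above Ltbp1 in 6 of 11 and Ltbp1 above Ltbp2 in 7 of 11, so these 4 genes do not have a fixed order. The other neighbours kept their order in 10 or 11 of 11 libraries. The longest transcript sets these levels, and a shorter form in use would raise them.

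Single libraries moved many members at once. Osimertinib 3 had the lowest value of all 11 libraries in 5 members (Tgfb2, Ltbp1, Tgfbr2, Smad7 and Skil), and naphthalene 3 in 3 (Tgfb1, Tgfb3 and Ltbp2). The values of all genes summed to 1159140 in osimertinib 3, against 642771 to 679607 in osimertinib 1, 4 and 5 and the control libraries. They summed to 2315410 in naphthalene 3, against 1601960 and 2010530 in naphthalene 1 and 2. The part of scaling and composition in these low values was not tested. Osimertinib 5 had the highest value in 4 members (Tgfb2, Ltbp1, Tgfbr1 and Skil). Control 1 had the lowest control value in 9 of 9 members. Without naphthalene 3 and osimertinib 3, a setting chosen after the data were seen, 0 members passed and 2 had an unadjusted p under 0.05 in osimertinib against naphthalene and 4 in osimertinib against control, all with higher values in osimertinib. Of all genes, 18.9% and 8.58% had such a p there, 13.9% and 3.87% with higher values.

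**Figure D4:**
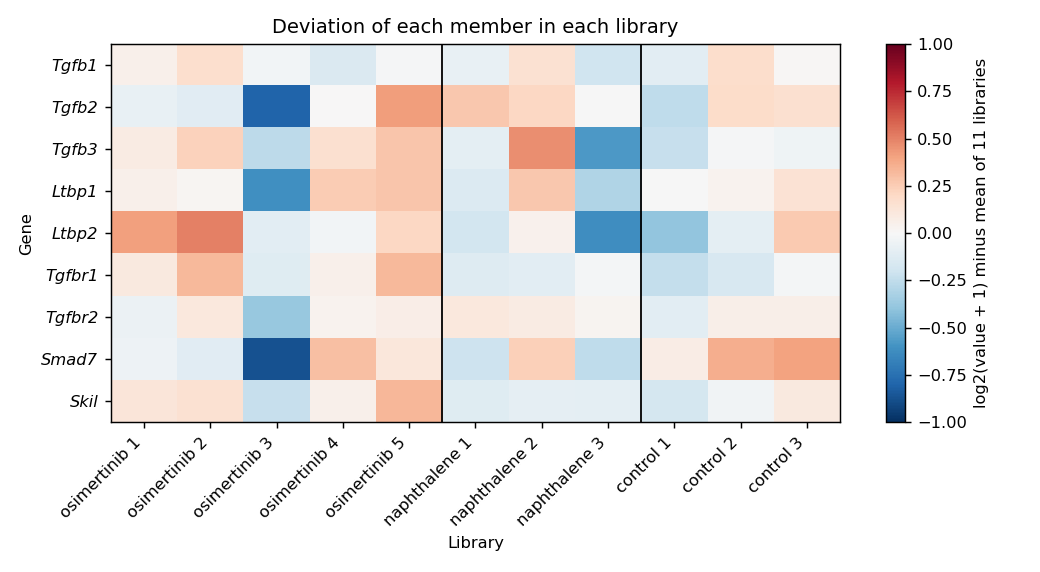
Deviation of each member in each library from its mean over the 11 libraries, in log2(value + 1), from blue (below) to red (above), with lines between the osimertinib, naphthalene and control libraries. Osimertinib 3 is below the mean for all 9 members, most for Smad7, Tgfb2 and Ltbp1.

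For each member the gene with the most similar profile was sought among 11694 genes with a mean of at least 5, by Pearson's r of log2(value + 1) over the 11 libraries, and these correlations share that library set and its depths. These were Ccdc86 for Tgfb1 (r = 0.841), Ddr2 for Tgfb2 (0.973), the gene model Gm48774 for Tgfb3 (0.930), Pln for Ltbp1 (0.970), Lancl2 for Ltbp2 (0.895), Foxo3 for Tgfbr1 (0.976), Cd164 for Tgfbr2 (0.982), Pclo for Smad7 (0.972) and Col4a2 for Skil (0.917). Foxo3 was also the second for Skil (0.916). Without osimertinib 3 the r of Tgfbr1 with Foxo3 was 0.985 and that of Tgfb2 with Ddr2 was 0.924. These are the largest of many correlations and are given as descriptions.

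The other genes of the pathway were taken from 6 lists with 85 genes, of which 83 passed the filter (Il11 and Grem1 did not). In the limma fit of all libraries 0 of the 83 were called in any comparison. Some other settings called a few. Without osimertinib 2 and 3, 3 targets were called in osimertinib against naphthalene (47 of all 16240 genes). With array weights 2 targets and 1 latent complex gene were called in osimertinib against control (149 of 16225 genes). Without osimertinib 3, 1 target was called there (2 of 16234 genes). DESeq2 called 2 targets in osimertinib against naphthalene (33 of 16225 genes) and 2 in osimertinib against control (78 of 16225 genes). Without naphthalene 3 and osimertinib 3 the calls were 1 target and 2 latent complex genes in osimertinib against naphthalene (198 of 16265 genes). That setting also called 1 target in osimertinib against control (3 of 16265 genes). In naphthalene against control it called 1 latent complex gene (202 of 16265 genes). Equal totals moved the median gene by over 1 in both comparisons with naphthalene. With them, 22 of 23 targets were called in osimertinib against naphthalene, beside 14420 of all 16549 genes. In naphthalene against control all 23 were called, beside 15763 of 16549 genes. The latent complex, receptor, Smad and inhibitor lists were called in full in both comparisons. The lists were chosen with earlier results of these data known, so their counts beside the backgrounds are descriptions. Of 23 TGF-beta targets tested, 8 had an unadjusted p under 0.05 with higher values and 1 with lower values in osimertinib against naphthalene, where 7.08% of all genes had the first and 3.22% the second. In osimertinib against control the counts were 7 and 1 (backgrounds 2.31% and 2.5%), and in naphthalene against control 2 and 3 (1.73% and 5.74%). The list median was 0.22 and 0.25 for osimertinib against naphthalene and against control, beside 0.06 and −0.01 over all genes, and −0.05 for naphthalene against control, beside −0.06. Monocyte-derived macrophage markers summed to 147 to 242 in osimertinib, 119 to 149.9 in naphthalene and 117 to 153 in control, and alveolar macrophage markers to 499 to 1015, 398 to 612 and 413 to 422. The part of these cells in the target values was not tested. Without osimertinib 3 the count of higher targets in osimertinib against naphthalene was 10 (8.45% of all genes). A term for the read share of ENSMUSG00000119584 turned this comparison into osimertinib 2 alone against the naphthalene libraries. The list median was 0.11 there, against 0.22 without the term.

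**Figure D5:**
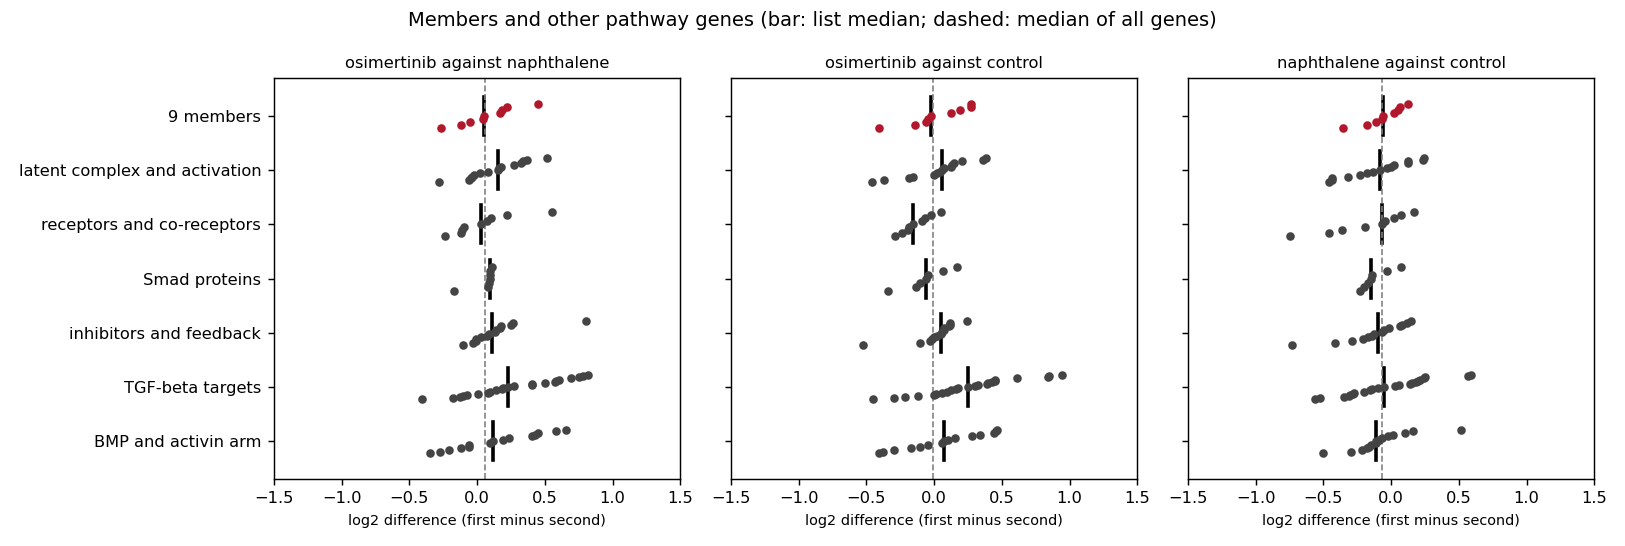
Log2 differences (group named first minus the other) of the 9 members (red points) and of the genes of 6 other pathway lists (grey points), with each list's median as a bar and the median of all genes as a dashed line. In both comparisons with osimertinib as the first group the TGF-beta targets have the list median furthest to the right, at 0.22 and 0.25. The lists were chosen with earlier results of these data known.

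Col3a1, Ccn2 and Lox had the smallest p-values of that list. The fibrillar collagen Col3a1 averaged 506 ± 70.3 (SD, n = 5) in osimertinib, against 313 ± 48.8 (SD, n = 3) in naphthalene and 261 ± 16.5 (SD, n = 3) in control, and every osimertinib library lay above all others. Its log2 difference was 0.94 against control (SE 0.13, adjusted p = 0.111 by limma and 4.01e-07 by DESeq2). Ccn2, the matricellular protein also known as connective tissue growth factor, had values of 71.1, 50.3, 65.0, 58.5 and 83.0 in osimertinib 1 to 5. It had 42.0, 40.0 and 32.6 in naphthalene 1 to 3, and 40.6, 51.3 and 50.0 in control 1 to 3. All osimertinib libraries lay above the naphthalene libraries, and osimertinib 2 lay below control 2. The log2 difference from naphthalene was 0.75 (SE 0.15, adjusted p = 0.188 by limma and 0.0499 by DESeq2). Lox, the enzyme that cross-links collagen and elastin, averaged 67.8 ± 18.6 in osimertinib (SD, n = 5), against 43.5 ± 7.29 in naphthalene and 36.4 ± 2.71 in control (SD, n = 3 each). By DESeq2, Lox also passed against control (adjusted p = 0.0103) and Col3a1 against naphthalene (adjusted p = 0.0183). On the same recovered reads edgeR called 0 of the 23 targets in either comparison with osimertinib.

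The genes that hold or release latent TGF-beta were tested in 15 of 15. Of these, 3 had an unadjusted p under 0.05 in osimertinib against naphthalene, all with higher values in osimertinib, where 7.08% of all genes had such a p with higher values. In osimertinib against control 2 had higher values (background 2.31%), and in naphthalene against control 1 had higher and 2 had lower values (1.73% and 5.74%). The integrin subunit Itgb5, which pairs with Itgav to bind latent TGF-beta, had values of 66.9, 58.2, 74.8, 58.5 and 64.0 in osimertinib 1 to 5. It had 41.7, 40.3 and 52.8 in naphthalene 1 to 3, and 61.3, 59.7 and 61.6 in control 1 to 3. The naphthalene libraries lay below all others. Its log2 difference was 0.52 for osimertinib against naphthalene (SE 0.11, adjusted p = 0.188) and −0.44 for naphthalene against control (SE 0.12, adjusted p = 0.482). The latent binding protein Ltbp3 averaged 107 ± 11.1 in osimertinib (SD, n = 5), 85.7 ± 10.8 in naphthalene and 96.7 ± 6.04 in control (SD, n = 3 each). Fibrillin 1 (Fbn1), which anchors latent complexes in microfibrils, averaged 175 ± 19.8 in osimertinib, 139 ± 25.9 in naphthalene and 136 ± 10.6 in control, with all osimertinib libraries above the control libraries (log2 0.36, SE 0.13, adjusted p = 0.847).

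Among the further receptors and Smad proteins 0 were called. Of 9 receptors and co-receptors, 3 had an unadjusted p under 0.05 with lower values in naphthalene than in control, where 5.74% of all genes had such a p, and these had ranges that did not overlap, as 11.2% of genes did in that direction. A further receptor lay wholly higher in naphthalene, as 4.94% of genes did. A single receptor had an unadjusted p under 0.05 with higher values in osimertinib than in naphthalene (Acvr2b, log2 0.55, adjusted p = 0.364) and another with lower values in osimertinib than in control (Eng, −0.29, adjusted p = 0.961). Of all genes, 7.08% and 2.5% had such a p in these directions. The endothelial type I receptor Acvrl1 averaged 208 ± 11.9 in naphthalene and 288 ± 43.3 in control (SD, n = 3 each), a log2 difference of −0.46 (SE 0.16, adjusted p = 0.587). Its co-receptor endoglin (Eng) averaged 207 ± 17.4 in naphthalene and 266 ± 27.7 in control (log2 −0.36, SE 0.14, adjusted p = 0.611), and the activin receptor Acvr2b 5.72 ± 2.16 and 9.97 ± 1.11 (−0.75, SE 0.23, adjusted p = 0.491). Acvr2b was at 8.21, 4.35 and 4.59 in naphthalene 1 to 3, where 1 read counts as 0.316, 0.396 and 0.459. Few reads thus lie behind its differences from naphthalene. All 8 endothelial markers lay below 0 in the same comparison, 4 of them with an unadjusted p under 0.05, and their part was not tested. Of 7 Smad genes 0 had an unadjusted p under 0.05 in any comparison. The backgrounds were 10.3% of genes in osimertinib against naphthalene, 4.8% in osimertinib against control and 7.46% in naphthalene against control. Smad2, the receptor-activated Smad, averaged 47.2 ± 1.42 in osimertinib (SD, n = 5), against 44.3 ± 4.28 in naphthalene and 42.0 ± 0.714 in control (SD, n = 3 each). Smad3, its partner, averaged 41.4 ± 5.24 in osimertinib, 38.6 ± 0.876 in naphthalene and 45.4 ± 2.58 in control. Smad5, which BMP receptors activate, averaged 87.0 ± 7.95, 81.4 ± 8.50 and 93.4 ± 2.36 in the same groups. Smad3 and Smad5 lay wholly lower in naphthalene than in control (adjusted p = 0.719 for Smad3 and 0.743 for Smad5 by limma). In all, 3 of the 7 Smad genes did, beside 11.2% of all genes. Smad2 lay wholly higher in osimertinib than in control (adjusted p = 0.999 by limma), as 2.91% of genes did. There 1 other Smad gene lay wholly lower, as 3.43% of genes did.

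Of 14 further inhibitors, 0 had an unadjusted p under 0.05 in osimertinib against naphthalene, where 10.3% of all genes did. In each of the other comparisons 1 did, beside 4.8% of all genes in osimertinib against control and 7.46% in naphthalene against control. These were the ubiquitin ligase Nedd4l, at 106 ± 6.70 in osimertinib (SD, n = 5) and 89.7 ± 8.43 in control (SD, n = 3; log2 0.24, SE 0.09, adjusted p = 0.912), and the Smad phosphatase Ppm1a, at 64.9 ± 1.32 in naphthalene and 75.3 ± 2.98 in control (SD, n = 3 each; −0.21, SE 0.10, adjusted p = 0.659). Smad6, the inhibitory Smad nearest to Smad7, averaged 65.7 ± 21.7 in osimertinib (SD, n = 5), 69.4 ± 20.1 in naphthalene and 91.2 ± 14.6 in control (SD, n = 3 each). Its log2 difference of osimertinib against control was −0.52 (SE 0.27, adjusted p = 0.999), beside −0.41 for Smad7.

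In the bone morphogenetic protein (BMP) and activin arm, 15 of 16 genes were tested. The ligand Bmp6 had values of 83.9, 59.0, 58.5, 70.5 and 86.4 in osimertinib 1 to 5. It had 66.6, 63.3 and 68.8 in naphthalene 1 to 3, and 90.8, 96.5 and 95.5 in control 1 to 3. Every control library lay above all others. The log2 difference was −0.41 for osimertinib against control (SE 0.13, adjusted p = 0.696) and −0.50 for naphthalene against control (SE 0.15, adjusted p = 0.484). Follistatin-like 1 (Fstl1), a secreted BMP antagonist, averaged 73.8 ± 8.62 in osimertinib (SD, n = 5), against 54.5 ± 3.28 in naphthalene and 60.6 ± 5.52 in control (SD, n = 3 each). All osimertinib libraries lay above the naphthalene libraries (log2 0.43, SE 0.11, adjusted p = 0.204). Id1, a target of BMP signalling, averaged 47.5 ± 24.5 in osimertinib, 27.5 ± 5.67 in naphthalene and 31.99 ± 6.05 in control, with 86.7 in osimertinib 3 and 28.6 to 56.2 in the other osimertinib libraries.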

How the data were processed

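Total RNA of mouse lung was depleted of ribosomal RNA and made into directional libraries, per the labels' protocols; these speak of RNA from cells, while the labelled tissue is lung. The deposited values are a normalised signal per gene. Bowtie2, edgeR, RSEM 1.3.0, Trimmomatic 0.38 and build GRCm39 are listed in the submitters' processing notes, without roles or settings. In the deposited signal 100% of values were whole multiples of the library's smallest value (tolerance 0.01), so reads could be recovered. A reference table of gene names matched 23123 of 23255 IDs, and levels per kilobase use the longest transcript of GENCODE M21 (GRCm38).

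Genes with a mean of at least 1 (16225) entered limma 3.58.1 in R 4.3.3 on the log2(value + 1) scale, with a mean-variance trend, 3 groups in 1 fit and Benjamini-Hochberg adjustment at 0.05. The scale understates changes of low genes. The script was tested on simulated data. edgeR 4.0.16 and DESeq2 1.42.0 were run on recovered reads. The other alternatives were pseudocounts of 0.1 and 5, no filter or a mean of 5, 4 other scalings, a fit of just the 2 groups at hand, no variance trend, array weights, the replicate block, and libraries left out. Settings with a read-share term, and without naphthalene 3 and osimertinib 3, were added after the data were seen. The read-share term is a yes or no mark for a large share of reads from ENSMUSG00000119584. It marks the naphthalene libraries and osimertinib 2. In osimertinib against control it sets osimertinib 2 aside.

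Members and lists were chosen with earlier results of these data known. The text names the members, and of each list the 3 genes with the smallest unadjusted p, and the gene most like each member. Which of their values, promoters and ratios are shown was decided after the values were seen. Same-numbered osimertinib and naphthalene libraries had r = 0.122, 0.159 and 0.523 across genes, for deviations from the group mean. The largest came from osimertinib 3 and naphthalene 3, which also had the highest scores on the first principal component. Differently numbered libraries were not compared, so these values do not show that the numbers are pairs. In the other comparisons only naphthalene 2 and control 2 had r over 0.1 (0.203). The replicate block joins libraries of all 3 groups by number. Osimertinib 4 and 5 have no partner, so the block leaves them out of both comparisons with osimertinib.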

Additional observations from a re-analysis of the deposited data

How the results depend on the processing

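By limma 0, 1 and 0 genes passed in osimertinib against naphthalene, osimertinib against control and naphthalene against control, and no member passed under any setting other than equal totals. Of 1540 values recomputed, 1391 counted as the same. For differences this meant the same direction and side of the threshold, and for counts of calls an equal or near count. The causes of the other changes were not tested. With all libraries scaled to equal totals, 14420 genes passed in osimertinib against naphthalene, 96 genes passed in osimertinib against control and 15763 genes passed in naphthalene against control. The sign changed in osimertinib against naphthalene to 0.86 for Tgfb2, 1.06 for Tgfbr2 and 1.11 for Smad7, in osimertinib against control to -0.17 for Tgfb3, -0.093 for Ltbp2, -0.093 for Tgfbr1, -0.25 for Skil, -0.014 for Fbn1, -0.13 for Nedd4l and -0.092 for Fstl1, in naphthalene against control to -1.35 for Tgfb2, -1.46 for Tgfb3, -1.48 for Tgfbr1 and -1.49 for Tgfbr2. All 9 members passed there in osimertinib against naphthalene (higher) and all 9 in naphthalene against control (lower), where the median gene lay at 1.10 and -1.45. With equal totals leaving out ENSMUSG00000119584, 7 genes passed in osimertinib against naphthalene and 0 genes passed in osimertinib against control. Signs turned in osimertinib against naphthalene to 0.13 for Tgfbr2 and 0.20 for Smad7, in osimertinib against control to -0.0058 for Tgfb3 and -0.081 for Skil, in naphthalene against control to -0.31 for Tgfb2, -0.41 for Tgfb3, -0.40 for Tgfbr1 and -0.39 for Tgfbr2. Under quantile normalisation, 1 gene passed in osimertinib against naphthalene. The log2 difference changed sign in osimertinib against naphthalene to -0.0090 for Tgfb1 and -0.0056 for Ltbp1. With only the 2 groups compared in the fit, 1 gene passed in osimertinib against naphthalene and 21 genes passed in naphthalene against control. With array weights, 4 genes passed in osimertinib against naphthalene, 149 genes passed in osimertinib against control and 5 genes passed in naphthalene against control. The sign changed in osimertinib against naphthalene to -0.010 for Tgfb1 and 0.15 for Smad7, in osimertinib against control to 0.087 for Ltbp1. Without a variance trend, 0 genes passed in osimertinib against control. With the replicate block, which pairs same-numbered libraries and leaves osimertinib 4 and 5 without a partner, 0 genes passed in osimertinib against control. Differences changed sign in osimertinib against naphthalene to -0.12 for Ltbp1, in osimertinib against control to 0.036 for Tgfb1. Without osimertinib 2 and 3, 47 genes passed in osimertinib against naphthalene, 2 genes passed in osimertinib against control and 38 genes passed in naphthalene against control. There the sign turned in osimertinib against naphthalene to 0.19 for Smad7, in osimertinib against control to 0.085 for Tgfb2, 0.14 for Ltbp1 and 0.012 for Tgfbr2. By edgeR the log2 difference changed sign in osimertinib against naphthalene to -0.0091 for Tgfb1. By DESeq2, 33 genes passed in osimertinib against naphthalene, 78 genes passed in osimertinib against control and 12 genes passed in naphthalene against control. Signs turned in osimertinib against naphthalene to -0.018 for Tgfb1, in naphthalene against control to 0.0020 for Tgfb1. With a read-share term (added after the data were seen), 2 genes passed in osimertinib against control. That term makes osimertinib against naphthalene a comparison of osimertinib 2 alone with the naphthalene libraries. It also shifts naphthalene against control by the deviation of osimertinib 2 from the other osimertinib libraries. Differences changed sign in osimertinib against naphthalene to 0.037 for Tgfbr2, in naphthalene against control to -0.15 for Tgfb3, -0.18 for Tgfbr1 and -0.12 for Tgfbr2. Without naphthalene 3 and osimertinib 3 (added after the data were seen), 198 genes passed in osimertinib against naphthalene, 3 genes passed in osimertinib against control and 202 genes passed in naphthalene against control. There the sign turned in osimertinib against naphthalene to -0.027 for Tgfb1 and 0.047 for Smad7, in osimertinib against control to 0.029 for Tgfb2, 0.094 for Ltbp1 and 0.035 for Tgfbr2, in naphthalene against control to 0.014 for Tgfb1, 0.0094 for Ltbp1 and 0.0057 for Ltbp2. Leaving out each library in turn moved the values as follows, and no member passed. For osimertinib against naphthalene, 0 to 11 genes passed, and the ranges that crossed 0 were Tgfb1 -0.035 to 0.14, Tgfb3 -0.085 to 0.43, Ltbp1 -0.068 to 0.22 and Smad7 -0.16 to 0.14. For osimertinib against control, 0 to 2 genes passed, and the ranges that crossed 0 were Tgfb1 -0.086 to 0.052, Tgfb2 -0.28 to 0.029, Ltbp1 -0.13 to 0.094 and Tgfbr2 -0.10 to 0.035. For naphthalene against control, 0 to 12 genes passed, and the ranges that crossed 0 were Tgfb1 -0.16 to 0.014, Tgfb2 -0.017 to 0.20, Tgfb3 -0.24 to 0.28, Ltbp1 -0.28 to 0.0094, Ltbp2 -0.34 to 0.0057 and Skil -0.13 to 0.0061. The counts without osimertinib 2 reached 11 genes in osimertinib against naphthalene and 12 in naphthalene against control. The single call of Mmp2 in osimertinib against control ended without osimertinib 1, osimertinib 5 or any 1 control library. The block ended it too and changed no other call. With the block, 1 member had an unadjusted p under 0.05 with higher values (Ltbp2) and 1 with lower values (Tgfb2) in osimertinib against naphthalene. Naphthalene libraries held as few as 35 reads of a member, which limits the precision of those values.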
